A study of Mus musculus with 6 samples.

Results

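Desmoglein 2 (*Dsg2*) and the other components of the desmosome were followed in whole mouse embryos homozygous for a mutation of *Zic2*. The set holds 8 named genes, the desmosomal cadherins *Dsg2* and *Dsc2*, the plakin *Dsp*, and the armadillo proteins *Jup*, *Pkp1*, *Pkp2*, *Pkp3* and *Pkp4*. Of these, 7 have a probe under their name, among 19057 genes with a probe, and they are read by 16 probes, 4 of them for *Dsg2*. *Dsp* was not analysed here. *Dsg2* was selected on its measured values, a higher level in the mutant in this same comparison, so its values are a description and carry no test. The others were chosen because they build the same structure.

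Whole embryos of the C3H/HeH strain at E8.0 to E8.5 were combined by stage, 8 to a pool, and 3 pools were homozygous for *iso* (*Zic2* iso/iso) while 3 were wildtype. The *iso* allele came from chemical mutagenesis with ethylnitrosourea and introduces a premature stop codon that disrupts a zinc finger of ZIC2. Mutant and wildtype embryos came from crosses between heterozygous parents, and the allele acts in every tissue of the embryo. RNA of each pool was hybridised to 1 Illumina Mouse WG6 v2 array, on which a short probe reads a transcript as an intensity. *Zic2* lies on chromosome 14, away from all 8 genes, of which *Dsg2* and *Dsc2* are both on chromosome 18.

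Desmosomes are the spot-like junctions that rivet epithelial and cardiac muscle cells to each other. Desmogleins and desmocollins, which are cadherins, span the membrane and bind their partners on the next cell, while plakoglobin (*Jup*) and the plakophilins bind their tails and desmoplakin links the complex to intermediate filaments. *Dsg2* is the desmoglein of simple epithelia and of the heart. In the early embryo it is used in the epiblast and in extraembryonic tissue as well, before stratified epithelia form.

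Values are given as log2 intensities after quantile normalisation, and differences as *Zic2* iso/iso minus wildtype on the same log2 scale. A level of 7.47 was taken as background, the 95th percentile of 1606 probes for olfactory and vomeronasal receptors and for keratin-associated and defensin proteins. Median deposited intensities ran from 154 to 187 in the 6 pools, Pearson's r across probes between pools was 0.993 to 0.996, and no pool was set aside. The *iso* change is a point mutation, so the level of *Zic2* does not check the labels. Its probe of higher signal gave 7.64, 7.57 and 8.01 in the mutant pools and 8.27, 8.06 and 8.00 in wildtype, and these values overlapped.

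The 4 *Dsg2* probes differed in what they showed. In 2 of them every mutant pool was above every wildtype pool, while in the probe of highest signal and in one at background the genotypes overlapped. The probe ILMN_2955047 gave 8.48, 8.25 and 8.44 in mutant replicates 1, 2 and 3, and 8.01, 7.84 and 7.84 in wildtype replicates 1, 2 and 3. All 3 mutant pools lay above all 3 wildtype pools. The means were 8.39 ± 0.12 (SD, n = 3) and 7.90 ± 0.10 (SD, n = 3), a difference of 0.50 (SE 0.08) or 1.41-fold.

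The probe ILMN_1242566 showed the same separation with a smaller difference. It gave 8.55, 8.52 and 8.60 in the mutant pools and 8.41, 8.12 and 8.24 in the wildtype pools. Again the lowest mutant pool was above the highest wildtype pool. The difference was 0.30 (SE 0.08), or 1.23-fold.

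The probe of highest signal, ILMN_1221153, did not separate the genotypes. It gave 10.75, 10.73 and 10.63 in the mutant and 10.43, 10.40 and 10.87 in wildtype. Wildtype replicates 1 and 2 were below every mutant pool, but wildtype replicate 3 was the highest of all. The difference was 0.14 (SE 0.11). Without wildtype replicate 3 it was 0.29, and without wildtype replicate 1 or 2 it was 0.07 or 0.06, so its size rests on single pools. Wildtype replicate 3 was not the highest wildtype pool by any of the other *Dsg2* probes.

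The last *Dsg2* probe, ILMN_1215475, was at the background level. It gave 7.62, 7.40 and 7.47 in the mutant and 7.53, 7.46 and 7.41 in wildtype, and the pools overlapped. The difference was 0.03 (SE 0.07), and -0.03 without *Zic2* iso/iso replicate 1. All 4 probes are annotated to the same *Dsg2* transcript. Averaged over the 4 probes, the *Dsg2* difference was 0.24. In the deposited intensities, before any normalisation and with the background still in them, the ratios of the means were 1.52, 1.32, 1.18 and 1.08, in the order in which the probes are described. In RNA of whole embryos, a change in the number of cells that express a gene and a change in RNA per cell cannot be told apart.

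**Figure D1:**
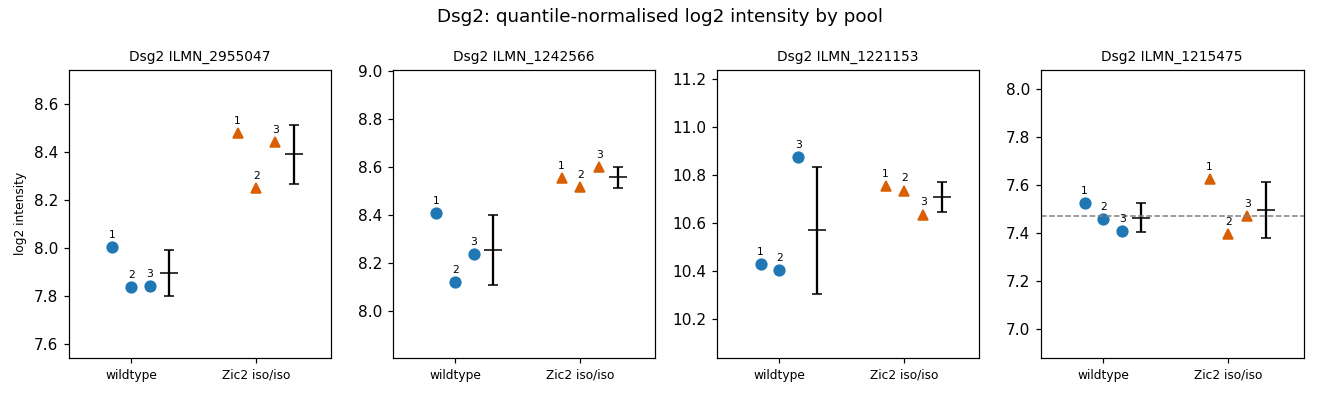
Quantile-normalised log2 intensity (y axis) of the 4 *Dsg2* probes in the 3 wildtype (circles) and 3 *Zic2* iso/iso pools (triangles), numbered by replicate. Bars are the mean and SD of each genotype, and a dashed line marks background (7.47) where it falls in the panel. Each y axis spans the same range of log2 units. The pools are apart for ILMN_2955047 and ILMN_1242566, and wildtype replicate 3 is the highest pool for ILMN_1221153.

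None of the other measured desmosome genes passed the test. Of the 12 probes for the other 6 genes, 0 passed an adjusted p of 0.05 in limma, against 0.0442% of all probes, and 2 had an unadjusted p under 0.05, against 6.02% of all probes. Those 2 were both for *Pkp4* and pointed in opposite directions. Of the 12, 7 had a positive and 5 a negative difference, from -0.26 to 0.20. The pools did not overlap for 3, with 2 higher and 1 lower in the mutant, where 10.6% of all probes have pools apart. With 1 probe for each gene (the one of highest mean), the median of the 6 genes was 0.0067, beside -0.0038 for all 19057 genes.

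Among the cadherins, *Dsc2*, the desmocollin that pairs with *Dsg2* in simple epithelia and heart, was below background in both genotypes. It gave 7.19, 7.26 and 7.13 in the mutant and 7.11, 7.24 and 7.13 in wildtype. A change of *Dsc2* could not be read at these levels.

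*Jup*, whose product plakoglobin joins the cadherin tails to desmoplakin and is shared with adherens junctions, was also below background. Its probe gave 7.25, 7.28 and 7.31 in the mutant and 7.05, 7.15 and 7.21 in wildtype. The mutant pools were all above the wildtype pools, by 0.14 (95% interval -0.0031 to 0.29; limma, adjusted p = 0.84). At a level under background, this separation is not a readable rise of *Jup*.

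The plakophilins bind cadherin tails and desmoplakin and help to cluster them. *Pkp1* and *Pkp3*, known best from stratified epithelia, were barely above background. *Pkp1* gave 7.55, 7.50 and 7.64 in the mutant and 7.64, 7.63 and 7.49 in wildtype, a difference of -0.02 (95% interval -0.18 to 0.13). *Pkp3* gave 7.91, 7.53 and 7.90 in the mutant and 7.63, 7.81 and 7.68 in wildtype, a difference of 0.07 (95% interval -0.14 to 0.28). For both genes the genotypes overlapped, and the adjusted p by limma was 0.99 for *Pkp1* and 0.97 for *Pkp3*.

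*Pkp2*, the plakophilin of the heart and of simple epithelia, was well above background by all 3 of its probes. The probe that gave 10.66, 11.01 and 10.72 in the mutant gave 10.71, 10.89 and 10.88 in wildtype, a difference of -0.03 (95% interval -0.23 to 0.17; limma, adjusted p = 0.99). For the probe ILMN_2927565 the values were 10.58, 10.89 and 10.33 in the mutant and 10.69, 10.88 and 10.998 in wildtype, a difference of -0.26 (95% interval -0.52 to 0.0076; limma, adjusted p = 0.85). The third probe gave 8.73, 9.12 and 8.66 in the mutant against 8.48, 8.86 and 8.80 in wildtype, a difference of 0.12 (95% interval -0.14 to 0.39). The pools overlapped for all 3 probes, and mutant replicate 2 was the highest of the mutant pools each time. The upper bound of 0.39 is the highest for any probe of these 6 genes.

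*Pkp4* (p0071), which is found at adherens junctions as well as at desmosomes, was read by 5 probes whose differences had both signs. The probe of highest mean gave 12.06, 12.29 and 12.46 in the mutant and 12.36, 12.46 and 12.38 in wildtype, a difference of -0.13 (95% interval -0.33 to 0.07; limma, adjusted p = 0.93). The probe ILMN_2623844, also well above background, gave 11.35, 11.41 and 11.20 against 11.31, 11.11 and 11.08, a difference of 0.16 (95% interval -0.02 to 0.33). The pools overlapped for both.

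The other 3 *Pkp4* probes were close to background. The probe ILMN_2620484 gave 7.55, 7.61 and 7.84 in the mutant and 7.50, 7.48 and 7.43 in wildtype, with the pools apart by 0.20 (limma, adjusted p = 0.79). The probe ILMN_1225262, below background, gave 7.31, 7.36 and 7.25 in the mutant and 7.52, 7.43 and 7.47 in wildtype, with the pools apart by -0.16 (limma, adjusted p = 0.78). The fifth differed by 0.04 with the pools overlapping. No direction can be given for *Pkp4*.

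**Figure D2:**
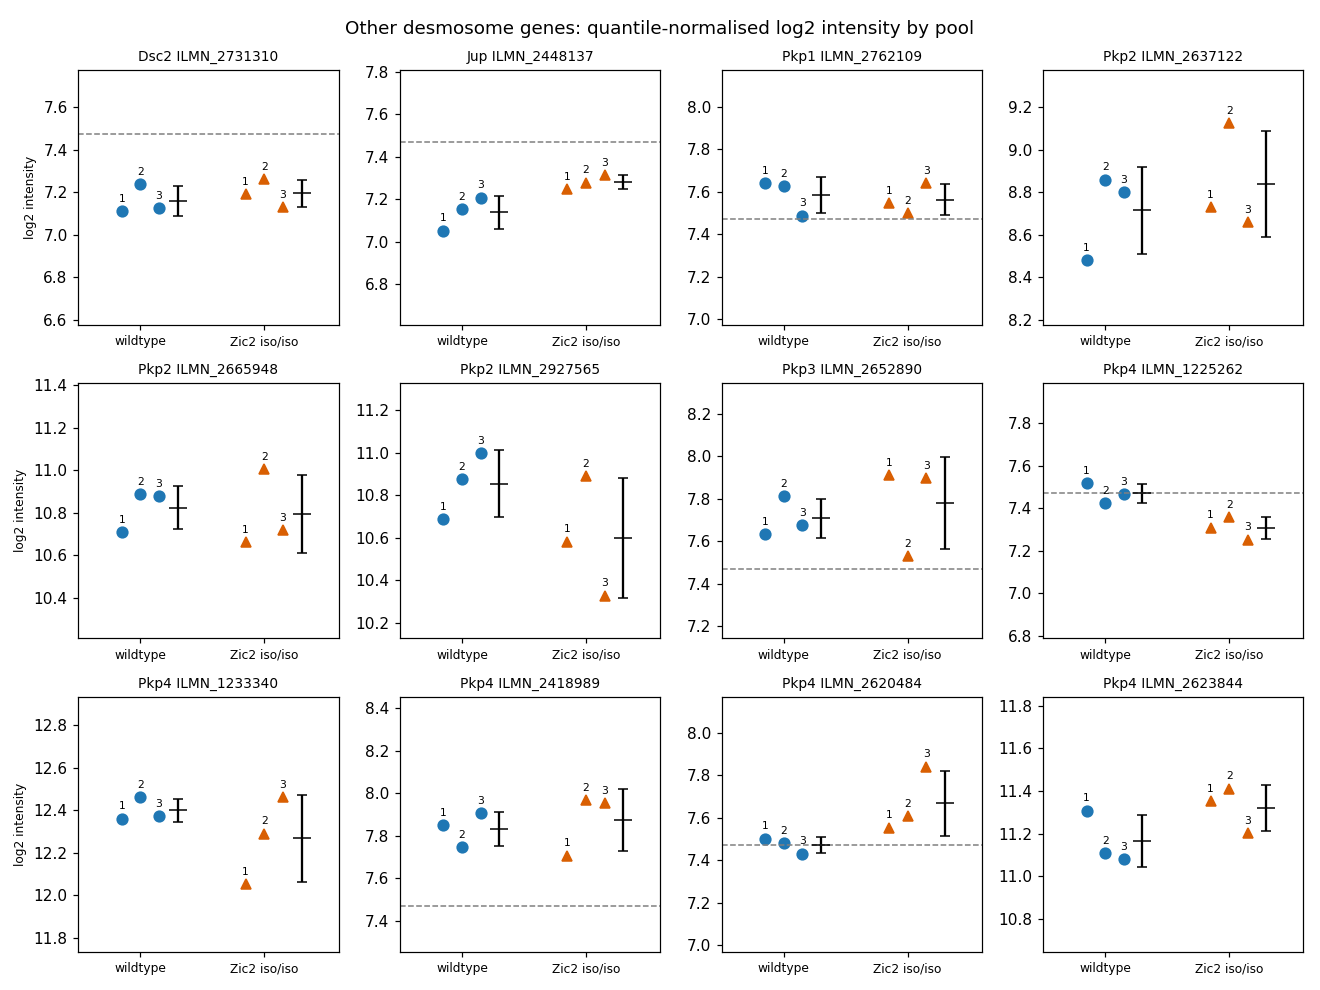
Quantile-normalised log2 intensity (y axis) of the 12 probes for *Dsc2*, *Jup* and *Pkp1* to *Pkp4* in the 3 wildtype (circles) and 3 *Zic2* iso/iso pools (triangles), numbered by replicate, with the mean and SD of each genotype. A dashed line marks background (7.47) and each y axis spans the same range of log2 units. The genotypes overlap for 9 probes. They are apart for *Jup* and for 2 *Pkp4* probes, 1 in each direction, all with values close to or below background.

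**Figure D3:**
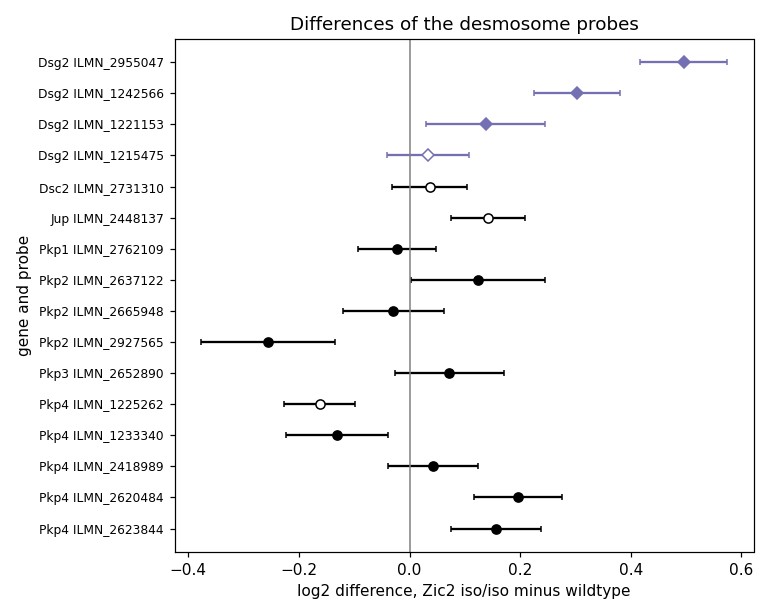
Difference of *Zic2* iso/iso minus wildtype on the log2 scale (x axis) for each of the 16 probes, with the standard error of the fit as bars. Diamonds are *Dsg2*, circles the other genes, and open symbols mark probes that were not above background in both genotypes. The *Dsg2* probes run from 0.03 to 0.50 and the others from -0.26 to 0.20.

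The wider set of junction genes was described in 8 lists, which hold other desmosomal cadherins, plakins and assembly genes, intermediate filaments, armadillo relatives, adherens junction genes, tight junction genes, epithelial regulators and the chromosome neighbours of *Dsg2*. Together 74 of their genes have a probe and 59 were above background. Of the 74, 0 passed an adjusted p of 0.05 in limma, beside 0.0442% of all probes. An unadjusted p under 0.05 was reached by 8 (10.8%, beside 6.02% of all probes). The pools were apart for 14.9% of them, 3 higher and 8 lower in the mutant, beside 10.6% of all probes, and their median difference was -0.02. These shares are not from like sets. The listed genes were read by their probes of highest mean, whereas 40.7% of all probes were above background.

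The other desmogleins and desmocollins gave little signal. Of 7 measured, *Dsg1b*, an epidermal desmoglein, was the one above background, with 7.17, 7.31 and 7.36 in the mutant and 7.39, 7.63 and 7.68 in wildtype. Its mutant pools were below the wildtype pools by 0.29 (a difference of -0.29; limma, adjusted p = 0.615), and its mutant mean of 7.28 was itself under background. The other 2 *Dsg1b* probes were under background, with differences of -0.08 and -0.01.

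The *Dsg2* gene lies within the desmoglein cluster of chromosome 18, between *Dsg3* and *Ttr*. *Dsg3* was below background (7.17 in wildtype and 7.13 in the mutant). *Ttr*, which encodes transthyretin and is a main product of the visceral endoderm, differed by 0.15 (SE 0.13; limma, adjusted p = 0.95). It gave 13.94, 13.46 and 13.57 in the mutant and 13.21, 13.72 and 13.59 in wildtype, and these overlapped. The difference was 0.0024 without wildtype replicate 1 and 0.01 without *Zic2* iso/iso replicate 1. Of the 10 neighbours, 0 passed in either direction and their median was -0.02. Only 5 of the 10 were above background, with a median of -0.0098, and the desmogleins among the 10 are also on the cadherin list.

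In the filament and plakin lists, 0 of 10 and 0 of 10 genes passed. *Krt8* and *Krt18*, the keratin pair of simple epithelia to which desmosomes attach, differed by 0.05 and 0.14 (limma, adjusted p = 0.98 and 0.895), with overlapping pools. *Krt7* differed by -0.22, with the mutant pools at 8.15, 8.39 and 8.28 and the wildtype pools at 8.60, 8.45 and 8.43, all higher (limma, adjusted p = 0.73). *Des*, the filament of muscle, had the largest difference of its list at -0.23 (SE 0.15) with overlapping pools, but it was -0.02 without wildtype replicate 2 and -0.38 without wildtype replicate 1. *Dst*, which encodes the plakin dystonin, had the largest of the other list at 0.15 (SE 0.08) by its probe of highest signal, with overlapping pools. Further *Dst* probes, ILMN_2721385 and ILMN_2758234, were also just above background and had every mutant pool higher, by 0.18 and 0.20 (limma, adjusted p = 0.78 and 0.77). As the mean of all its probes, most of them below background, *Dst* differed by 0.06.

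In the adherens junction list, 0 of 11 genes passed, and the largest difference was that of *Cdh1*, the E-cadherin of epithelia. It gave 9.82, 9.72 and 9.65 in the mutant and 9.40, 9.51 and 9.39 in wildtype, so that every mutant pool was above every wildtype pool. The difference was 0.29 (95% interval 0.14 to 0.45; limma, adjusted p = 0.38). A second *Cdh1* probe, near background, differed by -0.0069, and the mean of both by 0.14. *Ctnnd1*, the p120 catenin of the armadillo relatives, differed by 0.14, and *Cldn3* of the tight junction list by -0.19, both with overlapping pools. Without wildtype replicate 3 *Ctnnd1* differed by 0.04, and without *Zic2* iso/iso replicate 1 *Cldn3* differed by -0.11.

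The epithelial regulators held 4 of the 8 genes with an unadjusted p under 0.05, and their signs were mixed. *Grhl2*, an activator of epithelial junction genes, gave 8.81, 8.87 and 8.84 in the mutant and 8.64, 8.54 and 8.61 in wildtype, with the pools apart by 0.24 (limma, adjusted p = 0.49). A second *Grhl2* probe, below background, differed by 0.095 with overlapping pools, and the mean of both by 0.17. *Zeb1*, a repressor of *Cdh1*, gave 9.14, 9.57 and 9.28 in the mutant and 9.85, 9.69 and 9.72 in wildtype, with the pools apart by -0.42 (limma, adjusted p = 0.34). A second *Zeb1* probe, below background, differed by 0.07, and the mean of both by -0.18. *Snai2*, which represses the same gene and is a neural crest factor, gave 9.53, 9.40 and 9.34 against 9.04, 9.11 and 9.15, with the pools apart by 0.32 (limma, adjusted p = 0.26). *Klf5*, a regulator of early epithelia and trophoblast, differed by 0.24 with overlapping pools (limma, adjusted p = 0.83), and by 0.07 by a second probe below background.

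**Figure D4:**
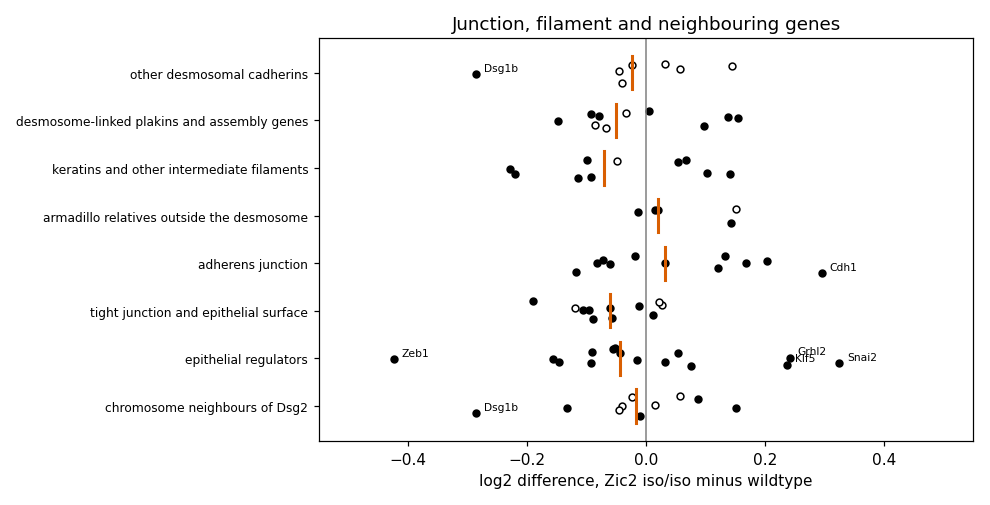
Difference of *Zic2* iso/iso minus wildtype on the log2 scale (x axis) for the measured genes of 8 lists (rows, points spread vertically only for legibility). Filled points were above background in at least 1 genotype, open points in neither, and the vertical bars are list medians. Genes above background that differed by more than 0.23 either way are named, and 0 of the 74 genes passed an adjusted p of 0.05 in limma.

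Some marker sums of other tissues differed between genotypes in these pools. The summed linear level of the 8 measured heart muscle genes was 11652, 12981 and 6763 in mutant replicates 1, 2 and 3 and 15109, 13329 and 16593 in wildtype, with 6 of the 8 above background and a median difference of -0.32. Mutant replicate 3 stood well below the others, and the highest mutant pool was close to the lowest wildtype pool. *Actc1*, which encodes cardiac actin, had the largest difference of that list at -0.66, with overlapping pools (limma, adjusted p = 0.75). *Myl4* differed by -0.61 and was the 1 heart gene of the 8 with the pools apart (limma, adjusted p = 0.61), beside 10.6% of all probes. An unadjusted p under 0.05 in limma was reached by 4 of the 8, beside 6.02% of all probes. For 6 notochord and node genes the sum was 1460 to 1564 in the mutant and 1911 to 2094 in wildtype. There *Shh*, a midline signal, fell by 0.86 and *Chrd*, a BMP antagonist, by 0.52 (limma, adjusted p = 0.0075 and 0.011). *Nog* differed by -0.14 with the pools apart (limma, adjusted p = 0.85). *Foxa2*, *Noto* and *Foxj1* differed by -0.11, 0.0018 and -0.02 with overlapping pools, so the fall was not shared by all 6 genes.

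Sums were higher in the mutant for 7 pluripotent and germ cell genes, at 4348 to 4617 against 3871 to 4115 with 5 above background, and for 6 trophoblast and decidua genes, at 6505 to 7490 against 5609 to 6123 with 4 above background. *Nanog* and *Pou5f1*, which are pluripotency factors, differed by 0.56 and 0.37 with the pools apart (limma, adjusted p = 0.084 and 0.28). Of the germ cell genes, *Dnd1* differed by -0.04 with overlapping pools, and *Dppa3* and *Prdm1* were below background. The genes of the trophoblast and decidua list did not move one way. *Prl8a2*, a decidual prolactin, had the largest difference of the list at -0.465, with overlapping pools (limma, adjusted p = 0.91). *Tpbpa*, a defining trophoblast gene, was below background. The highest level in the list is that of *Cdx2*, which the tail bud also uses. It was 12.53 in the mutant and 12.20 in wildtype, with the pools apart (limma, adjusted p = 0.495). The next highest was *Prl8a2*, at 8.33 in the mutant and 8.79 in wildtype. The sum is therefore mostly *Cdx2* and is not a reading of the list as a whole. The sums overlapped between genotypes for visceral and yolk sac endoderm (29586 to 43097 in the mutant, 26872 to 36165 in wildtype) and for surface ectoderm (11091 to 11349 and 10148 to 11267). They also overlapped for gut endoderm and neural plate genes. Of single genes there, *Pyy* differed by -0.57 with its pools apart and *Nes* by 0.10 with overlapping pools (limma, adjusted p = 0.20 and 0.96). The primitive blood sums were far apart among the mutant pools, at 9858, 2908 and 1378 in replicates 1, 2 and 3, against 4436, 5120 and 6370 in wildtype. *Hbb-bh1*, an embryonic globin, followed them at 12.87, 10.75 and 9.04 against 11.55, 11.74 and 12.17 (limma, adjusted p = 0.93). Without mutant replicate 3, which was lowest in both the heart and the blood sums, the *Dsg2* differences were 0.47, 0.28, 0.17 and 0.05, in the order in which the probes are described. The heart sums of mutant replicates 1 and 2 were still below every wildtype sum, so leaving out replicate 3 does not make the tissues equal. The yolk sac list had a median difference of 0.12 over its 10 genes, 8 of them above background. Every mutant pool was higher for 2 of the 10 and lower for 0, where 10.6% of all probes have pools apart in either direction. The 2 genes were *Apob*, which differed by 0.50 (limma, adjusted p = 0.15), and a gene below background. The part of these tissues in the *Dsg2* values was not tested.

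The genes whose levels over the 6 pools were most like the *Dsg2* probe of highest signal were *Yeats4* (Pearson's r = 0.995), *Marchf7* (0.989), *Dhcr7* (0.988), *Serpina10* (0.984) and *Acyp1* (0.973), of 10844 genes above background. An r above 0.9 was reached by 77 genes. The points are only 6 pools and share the high value of wildtype replicate 3, and no p is given.

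The differences of the *Dsg2* probes were recomputed with other background corrections, other scalings and without each pool. The probe ILMN_2955047 stayed between 0.45 and 0.67, ILMN_1242566 between 0.24 and 0.39, ILMN_1221153 between 0.06 and 0.29, and ILMN_1215475 between -0.03 and 0.10. The first 2 were above the third in every setting run, with the smallest gap without wildtype replicate 3, where ILMN_1242566 was at 0.293 and ILMN_1221153 at 0.290.

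**Figure D5:**
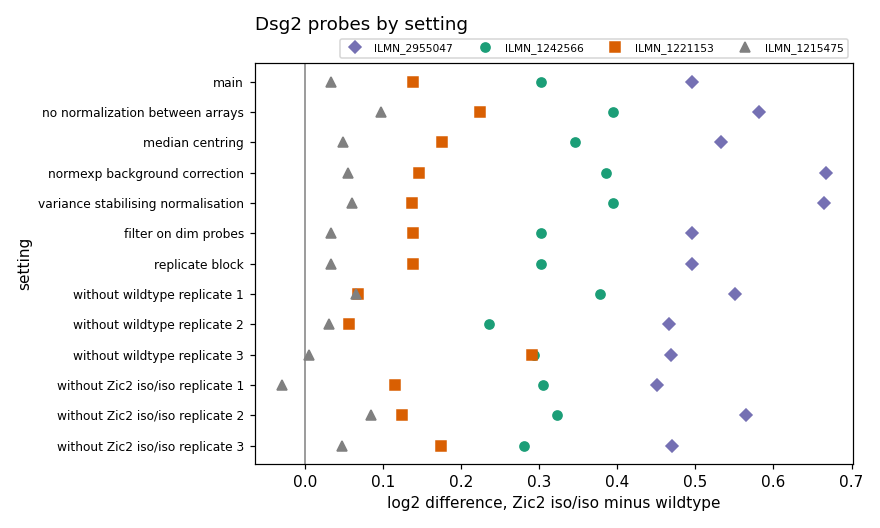
Difference of *Zic2* iso/iso minus wildtype on the log2 scale (x axis) for the 4 *Dsg2* probes under each setting (y axis), from the settings reported (main) through other normalisations to each pool left out. ILMN_2955047 lies highest in every setting shown, at 0.45 to 0.67, and ILMN_1215475 is below 0 only without *Zic2* iso/iso replicate 1.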

How the data were processed

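The authors deposited linear intensities for 45281 probes in each of 6 pools, with neither background subtraction nor normalisation between arrays (lowest values of 104 to 122), although the methods name a variance stabilising normalisation. They were raised to a floor of 1, log2 transformed, quantile normalised and fitted with limma 3.58.1 in R 4.3.3 (lmFit, eBayes), with Benjamini-Hochberg adjustment over all probes and a threshold of 0.05. Genotypes and replicate numbers came from the submitters' labels. The pools were taken as separate samples. The p-values test the difference of genotypes against the spread among pools of the same genotype, with variance shared across probes by eBayes. Controls were littermates according to the paper, but the labels do not give litters, so the genotypes may share them. Precision is limited by there being 3 arrays of each genotype.

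Gene names came from the array's annotation (34885 probes with 1 symbol, 18 with several, 10378 with none), and gene order and chromosomes from RefSeq (GRCm38.p6). The probe of highest mean stands for a gene. Named are all members with every probe, the genes of a list that passed or differed most, the 5 genes most like *Dsg2* and its nearest neighbours. *Krt7*, *Krt8*, *Krt18*, *Grhl2*, *Snai2*, *Klf5*, *Tpbpa* and *Cdx2* were named after their values were seen. So were *Myl4*, *Nog*, *Foxa2*, *Noto*, *Foxj1*, *Pou5f1*, *Dnd1*, *Dppa3* and *Prdm1*. The members and lists were chosen with earlier results of these data known. The steps were tested on simulated data. Alternatives were no normalisation, median centring, normexp (offset 50), a rewritten variance stabilising normalisation, a filter on dim probes, an eBayes trend or robust prior, the replicate block, the mean of a gene's probes, a threshold of 0.10, the 90th or 99th percentile as background, and each pool left out.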

Additional observations from a re-analysis of the deposited data

How the results depend on the processing

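The number of other desmosome genes that passed, and of genes on the 8 lists, was 0 in all 16 alternatives. Where calls over the whole array were counted, only 4 to 31 passed, so a 0 does not set these genes apart from others. The *Dsg2* probe ILMN_2955047 differed by 0.67 after normexp and 0.66 after the variance stabilising normalisation, and by 0.45 to 0.57 when single pools were left out. Directions turned for 4 genes that did not pass. *Pkp1* was at 0.0381 without normalisation, where the median of all probes was itself 0.05, and at -0.072 to 0.0089 with single pools left out. *Pkp2* was at 0.0575 without normalisation, at 0.0087 with median centring and at -0.1346 to 0.0374 with single pools left out. *Pkp4* was at 0.0203 as the mean of its probes. *Dsg3*, below background, was at 0.00070 without normalisation and at -0.0782 to 0.0085 with single pools left out. The median of the other desmosome genes was 0.07 without normalisation and -0.03 with the filter on dim probes. Probes that passed over the whole array numbered 20, against 4 without normalisation, 11 with median centring, 31 with an intensity trend and 13 of averaged genes. Of the 5 genes most like *Dsg2*, between 0 and 5 were shared across alternatives. Replicate numbers do not pair the pools (r of deviations -0.13, -0.02 and -0.12), and with a replicate block, which in a balanced design cannot move a difference, 17 probes passed. Of the 16 probes, 13 were above background in both genotypes or 1, 14 with the 90th percentile and 11 with the 99th.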
